A study of Mus musculus with 11 samples.

Results

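The S100 genes encode small calcium-binding proteins, most of which pair with themselves or with another family member and bind target proteins when calcium rises. *S100a8* and *S100a9* encode the subunits of calprotectin, which binds zinc and manganese, is abundant in neutrophils and in inflamed epidermis, and acts outside the cell as an alarmin through TLR4. Most of the other members are known for work inside the cell, on the cytoskeleton, on membranes together with annexins, or in the differentiation of epithelium and hair. The 10 genes described here were *S100a8*, *S100a9*, *S100a7a*, *S100a3*, *S100a4*, *S100a6*, *S100a10*, *S100a11*, *S100a14* and *S100a16*, found by symbol among the 45777 genes of the deposited table, and all 10 were present.

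RNA of skin and small intestine from BALB/c mice had been sequenced after cream was applied to the shaved skin of mice aged 8 to 10 weeks. The treated groups received 62.5 mg per day of Aldara, a cream with 5% imiquimod (IMQ), a TLR7 ligand that induces psoriasis-like dermatitis. The control groups received Vaseline, so IMQ cannot be told apart from the other contents of Aldara. The labels give 5 to 8 days of treatment for the series, and the sex and the days of a single mouse were not stated. The skin groups had 3 control libraries (replicates 1 to 3) and 3 IMQ libraries (replicates 4 to 6). The small intestine groups had 3 control (replicates 7 to 9) and 2 IMQ libraries (replicates 10 and 11), and each library had between 44995414 and 58526384 counts. Nothing in the labels says that each library came from a different mouse, so the p-values cover the spread between libraries, which may be partly technical.

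The labelled tissues held their defining transcripts. The summed level of 6 keratinocyte markers was 10857 to 22452 TPM, a count scaled for gene length and library size, in control skin and 1.23 to 2.84 TPM in control small intestine. One skin library stood apart. Control replicate 2 of the skin held small intestine epithelium markers at 1.96% of their level in control small intestine, against at most 0.0446% in the other 5 skin libraries. Its hair follicle markers summed to 17.3 TPM, against 1197 and 1981 TPM in the other controls and 7.45 to 8.36 TPM in IMQ-treated skin. Where leaving this library out changed the call of a gene named here in the skin, the value without it is given too. In whole tissue, fewer cells of a type and less RNA per cell cannot be told apart.

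All 10 genes lie on chromosome 3 of mm10 (GRCm38). *S100a14*, *S100a16*, *S100a3*, *S100a4*, *S100a6*, *S100a7a*, *S100a8* and *S100a9* follow each other in this order between positions 90526849 and 90695721, whereas *S100a11* (93520496 to 93526288) and *S100a10* (93555117 to 93564645) lie at the far end of the epidermal differentiation complex. *S100a8* (90669071 to 90670034, plus strand) and *S100a9* (90692630 to 90695721, minus strand) are neighbours, with 22595 bases and no gene of the table between them, and *S100a9* is the only member on the minus strand. The annotation of *S100a3* (90560356 to 90602706) overlaps *S100a2*, the snRNA gene *Gm23464* and the protein-coding gene *Gm42674*, which also overlaps *S100a4* (90603770 to 90606045). The handling of such shared reads was not given in the sources used here, so the counts of *S100a3* and *S100a4* are less certain than the others.

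The promoters of *S100a8* and *S100a9* are shown because these were the 2 members that passed the test in the skin. Each window holds 250 bases before and 50 bases after the gene start in RefSeq (GRCm38.p6), written 5′ to 3′ along the gene, with motif matches in capitals. The *S100a8* window (chr3:90668821-90669120, plus strand) holds TATAAA, and the *S100a9* window (chr3:90695672-90695971, minus strand) holds TTGCTTAA, a match to the C/EBP core, and TATAAA.
S100a8: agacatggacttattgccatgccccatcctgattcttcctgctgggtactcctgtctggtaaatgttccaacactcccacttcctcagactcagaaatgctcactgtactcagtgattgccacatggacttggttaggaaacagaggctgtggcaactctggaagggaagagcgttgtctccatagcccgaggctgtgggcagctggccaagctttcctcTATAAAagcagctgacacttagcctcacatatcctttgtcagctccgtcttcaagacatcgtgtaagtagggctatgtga
S100a9: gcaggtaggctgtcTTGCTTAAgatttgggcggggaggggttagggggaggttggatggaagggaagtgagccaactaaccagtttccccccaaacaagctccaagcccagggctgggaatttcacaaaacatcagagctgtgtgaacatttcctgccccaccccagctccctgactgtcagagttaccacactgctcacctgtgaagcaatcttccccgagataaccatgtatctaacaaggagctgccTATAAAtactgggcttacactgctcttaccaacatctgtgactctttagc
The table held 12 windows for 8 of the 10 members (4 for *S100a3*, 2 for *S100a16* and 1 for each of the others), which were searched on both strands for 4 short motifs. The TATA box core TATAAA was found in 4 of the 12 windows, 1 each of *S100a3*, *S100a4*, *S100a8* and *S100a9*, and in 13.6% of the 32851 mouse windows of the same length. By gene, these were 4 of the 8 members and 15.7% of the 27025 genes with a window. The match in *S100a3* lies in the window at chr3:90588313-90588612, within the annotated gene and not at its first base. In *S100a8* it began 30 bases before the start, and in *S100a9* at the annotated first base. The C/EBP core TTGCNNAA was found in *S100a9* alone, 236 bases before the start (10.8% of all windows). TGANTCA, the core bound by AP-1, was found in 1 of the windows of *S100a16* and at 2 places in *S100a11* (7.81% of all windows), and the STAT core TTCNNNGAA in *S100a7a* (8.3% of all windows). These are matches of letters and not measured binding sites.

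In the skin of IMQ-treated mice, the calprotectin genes *S100a8* and *S100a9* rose from the level of minor transcripts to that of the most abundant members of the family. Counts were tested by the quasi-likelihood method of edgeR, p-values were adjusted by Benjamini-Hochberg over every gene tested, and a gene was called at an adjusted p under 0.05. Errors of log2 fold changes are standard errors (SE). Of the 10 members, 2 were called, both higher, whereas 6.74% of the 20512 genes tested were called in either direction and 4.05% were called higher and 2.69% lower. The median log2 fold change of the 10 members was 0.29, beside -0.01 for all genes tested. At an unadjusted p under 0.05 there were 6 members, beside 23.2% of all genes tested.

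*S100a8* had normalized counts (counts brought to a common library size within the tissue) of 57.0, 34.9 and 101 in the control skin libraries and of 76212, 81593 and 65443 in the IMQ-treated skin libraries. The groups did not overlap, and the lowest IMQ library lay far above the highest control. The means were 64.3 ± 33.7 (SD, n = 3) and 74416 ± 8223 (SD, n = 3), a log2 fold change of 10.16 (SE 0.48, adjusted p = 5.39e-04 by edgeR), which was the second largest rise of the 20512 genes. *S100a9*, the partner subunit, had normalized counts of 155, 201 and 175 in control skin and of 127167, 137277 and 108797 in IMQ-treated skin. Its control libraries were closer to each other than those of *S100a8*, and again the groups did not overlap. The means were 177 ± 23.0 (SD, n = 3) and 124414 ± 14438 (SD, n = 3), a log2 fold change of 9.46 (SE 0.26, adjusted p = 7.60e-05 by edgeR). With each library left out in turn and under all other models tried, both genes were called wherever they were tested, with log2 fold changes of 9.88 to 10.64 for *S100a8* and 9.36 to 9.56 for *S100a9*. *S100a8* was not tested in the joint fit of both tissues, because a small intestine library has 0 counts.

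The rise moved the balance of the family. Together, *S100a8* and *S100a9* made up 0.00197% to 0.00263% of all TPM in control skin and 1.46% to 1.85% in IMQ-treated skin. They accounted for 0.454% to 0.547% of the TPM of the 10 members in control skin and for 75.9% to 81.3% in IMQ-treated skin. The ratio of *S100a9* to *S100a8* in TPM was 2.06, 4.28 and 1.30 in the control libraries and 1.25, 1.26 and 1.25 in the IMQ libraries. The IMQ libraries were nearly equal and lay below every control, in which *S100a8* rests on 32 to 116 counts. The log2 ratio was 0.85 lower in IMQ-treated skin (1.17 ± 0.87 against 0.32 ± 0.01, SD, n = 3 each), with p = 0.1 in a two-sided exact permutation test, the smallest value that 3 against 3 libraries can give. Without control replicate 2 the difference was -0.39.

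**Figure D1:**
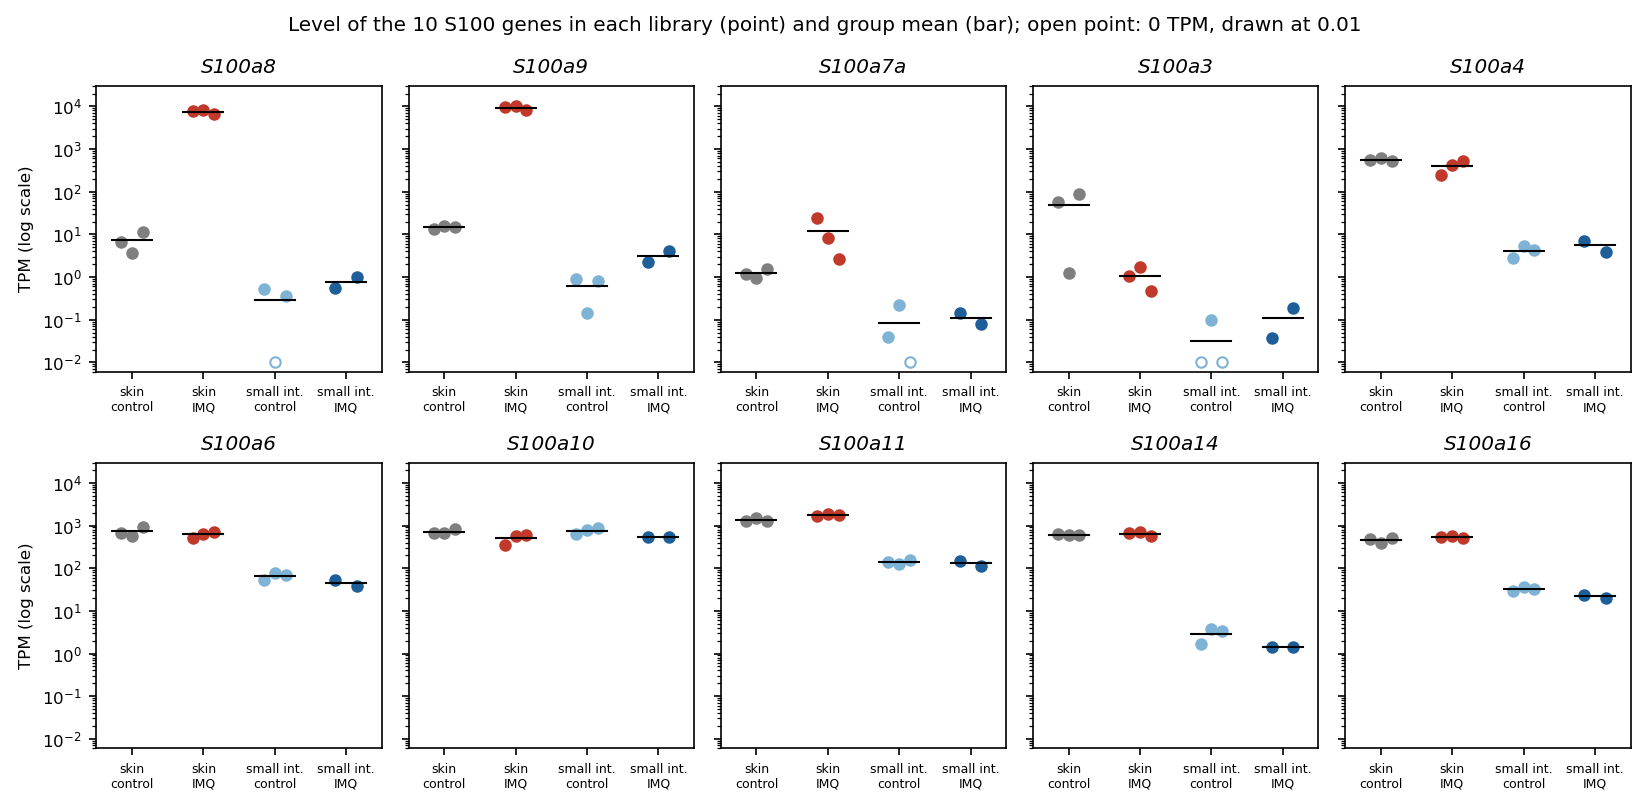
Level of each of the 10 S100 genes in TPM (log scale) in the 11 libraries, with 1 point per library, a bar at the group mean, and an open point where a library had 0 TPM. *S100a8* and *S100a9* lie at 6515 to 10286 TPM in the IMQ-treated skin and at most at 16 TPM elsewhere, whereas *S100a6*, *S100a10*, *S100a11*, *S100a14* and *S100a16* lie close together in both skin groups.

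*S100a7a*, the mouse counterpart of the human psoriasin genes, had normalized counts of 39.8, 55.6 and 47.9 in control skin and of 561, 214 and 74.2 in IMQ-treated skin. Every IMQ library was above every control, but the IMQ libraries differed among themselves, with replicate 4 highest and replicate 6 close to the controls. The log2 fold change was 2.56 (SE 0.69) and the gene was not called (adjusted p = 0.0783 by edgeR). Without IMQ replicate 6 it was 3.02 with an adjusted p of 0.0326, and the Wald test of DESeq2 gave an adjusted p of 6.52e-04.

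*S100a3*, whose protein is found in the cuticle of the hair, had normalized counts of 918, 21.8 and 1476 in control skin and of 20.8, 30.9 and 22.3 in IMQ-treated skin. Control replicate 2 lay within the range of the IMQ libraries, and the other controls were far above it. The log2 fold change was -5.02 (SE 1.30, adjusted p = 0.0686 by edgeR), and the gene was not called. Without control replicate 2 it was -5.59 (SE 0.30) with an adjusted p of 0.00155, and DESeq2 with all libraries gave an adjusted p of 0.00125. Hair follicle markers were also lower after IMQ. Of 11 such markers in the table, 7 were tested and 3 were called, all lower, with a median of -3.84 over the 7. Those called were *Krt32* (log2 fold change -3.54), *Lef1* (-3.10) and *Hoxc13* (-2.92). In these 3, unlike in *S100a3*, the lowest control library lay above the highest IMQ library. Their normalized counts were 112 against 18.5, 291 against 154 and 359 against 210. Without control replicate 2 all 7 were called lower, with a median of -4.37, beside 6.66% of the 20752 genes then tested. The summed level of the hair follicle markers was lowest among the controls in replicate 2, as given above, and their part in the level of *S100a3* was not tested.

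*S100a11*, an annexin-binding member of the cornified envelope, had the highest TPM of the 10 in control skin. Its normalized counts were 14214, 17635 and 14845 in control skin and 21201, 23681 and 22776 in IMQ-treated skin. The groups did not overlap, and the log2 fold change of 0.54 (SE 0.14) was not called (adjusted p = 0.0675 by edgeR). Without control replicate 2 it was 0.64 with an adjusted p of 0.0308, and DESeq2 gave an adjusted p of 0.00346. *S100a16*, a broadly expressed epithelial member, had normalized counts of 11896, 10658 and 13227 in control skin and of 15350, 16048 and 14665 in IMQ-treated skin. These groups did not overlap either, with a log2 fold change of 0.36 (SE 0.13, adjusted p = 0.147 by edgeR).

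The other members of the skin showed overlapping groups. *S100a14*, an epithelial S100 gene, had a log2 fold change of 0.22 (SE 0.13, adjusted p = 0.373). *S100a4*, known from fibroblasts and motile leukocytes, had normalized counts of 5841 to 7457 in control skin and of 3074 to 6542 in IMQ-treated skin, where replicate 4 was the lowest (log2 fold change -0.35, SE 0.27, adjusted p = 0.490). *S100a10*, the partner of annexin A2, had -0.35 (SE 0.23, adjusted p = 0.407), and its lowest library was again IMQ replicate 4. *S100a6*, expressed in fibroblasts and epithelium, had -0.05 (SE 0.21, adjusted p = 0.926), and its sign turned without control replicate 3 (0.14) or IMQ replicate 4 (0.09). In all, 5 of the 10 members had every IMQ library above every control (*S100a8*, *S100a9*, *S100a7a*, *S100a11* and *S100a16*), beside 15.1% of all genes tested, and 0 had every IMQ library below, beside 13.3%.

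**Figure D2:**
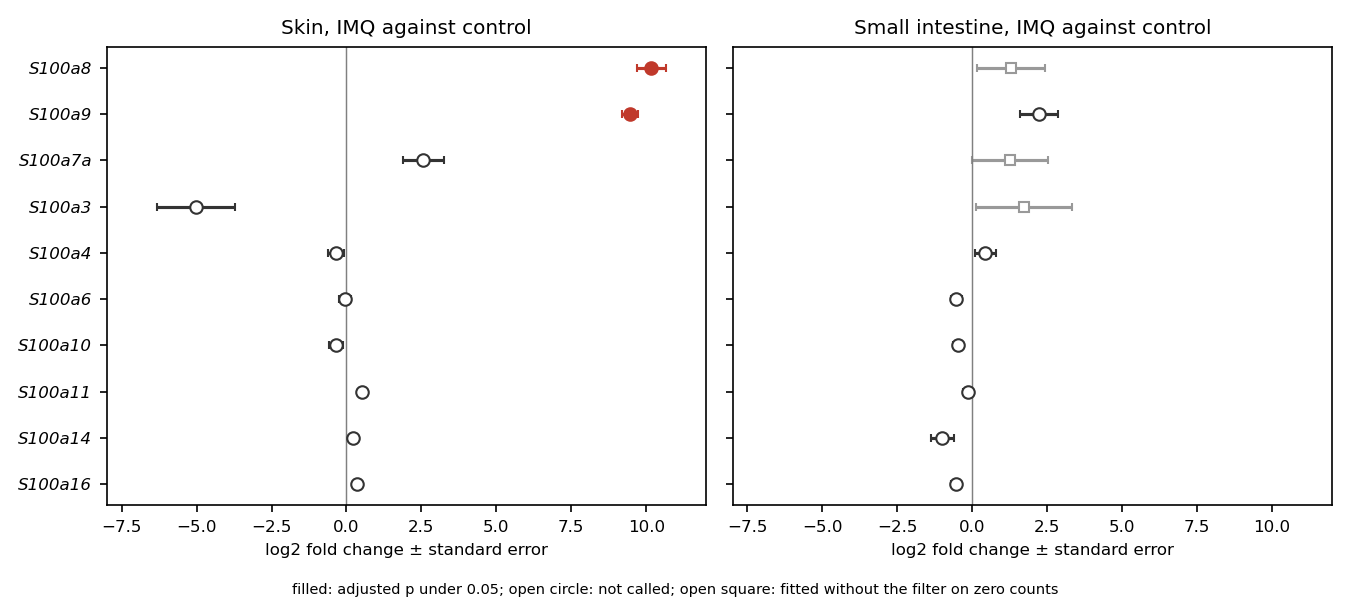
Log2 fold change (IMQ against control, edgeR) with its SE for the 10 S100 genes in skin (left) and small intestine (right); filled points have an adjusted p under 0.05, and open squares are genes fitted without the filter on zero counts. In skin, *S100a8* (10.16) and *S100a9* (9.46) are the filled points, and in the small intestine no point is filled.

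No member was called in the small intestine, where the calprotectin genes had at most 57 counts in any library. Genes with 0 counts in any library of the tissue were not tested, which left 7 of the 10 members. Of these, 0 were called, beside 2.95% of the 19965 genes tested (2.77% higher and 0.17% lower). An unadjusted p under 0.05 was found for 5 of the 7, beside 12.3% of all genes tested. The count of called members was 1 with DESeq2 (*S100a16*, lower) and 2 in one fit of all 11 libraries (*S100a9*, higher, and *S100a16*, lower). The median log2 fold change of the 7 was -0.48, beside -0.02 for all genes.

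*S100a9* had normalized counts of 15.2, 2.02 and 12.9 in the control small intestine and of 32.7 and 63.2 after IMQ. Both IMQ libraries were above all controls, at counts that were low in each library (2 to 57 reads). The log2 fold change was 2.24 (SE 0.64, adjusted p = 0.164 by edgeR), and the adjusted p was 0.0309 in the fit of all 11 libraries. *S100a8* had 6, 0 and 5 counts in the controls and 7 and 11 counts after IMQ, where a count of 0 allows up to 3 counts. Its groups overlapped after normalization, and fitted without the filter it gave a log2 fold change of 1.29 (SE 1.14, adjusted p = 0.778). *S100a7a* (0 to 7 counts in the controls, 8 and 7 after IMQ) and *S100a3* (0 to 5 and 2 to 9 counts) were near the limit of detection, and without the filter both had an adjusted p of 0.790. In TPM, *S100a7a* was at 0.216 in control replicate 8, above both IMQ libraries (0.142 and 0.0807).

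In 4 of the 7 tested members (*S100a6*, *S100a10*, *S100a14* and *S100a16*) both IMQ libraries of the small intestine were below all controls, beside 13.9% of all genes tested, and in 1 (*S100a9*) both were above, beside 15.1%. *S100a16* had normalized counts of 1013, 1054 and 1063 in the controls and of 745 and 671 after IMQ. The controls lay close together, and the log2 fold change was -0.56 (SE 0.14, adjusted p = 0.110 by edgeR; 0.00746 from DESeq2; 0.0185 in the fit of all 11 libraries). *S100a14* had 57.5, 107 and 110 in the controls and 43.6 and 47.7 after IMQ, with the IMQ libraries just below control replicate 7 (2.01-fold lower, adjusted p = 0.319). For *S100a6* the log2 fold change was -0.53 (SE 0.18, adjusted p = 0.263), and for *S100a10* it was -0.48 (SE 0.18, adjusted p = 0.302). *S100a4* (0.44, adjusted p = 0.735) and *S100a11* (-0.14, adjusted p = 0.840) had overlapping groups. Of 8 small intestine epithelium markers, 0 were called, and their median log2 fold change was -0.20. *Apoa4*, which encodes an apolipoprotein, was at 2240 to 6992 TPM in the controls and at 13630 and 21297 TPM after IMQ (adjusted p = 0.222 by edgeR). The other 7 summed to 9514 to 17699 TPM in the controls and to 13304 and 9220 TPM after IMQ, and the part of these cells in the S100 values was not tested.

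The responses of skin and small intestine were then compared in 1 model of all 11 libraries, in which 7 members were tested and 2 were called, both less positive in the small intestine (2.55% of the 18108 genes tested were called, 0.856% in this direction and 1.7% in the other). For *S100a9* the response in the small intestine was lower by a log2 difference of -7.22 (SE 0.70, adjusted p = 9.13e-04 by edgeR). This difference was the most negative of all genes tested, which leave out every gene with 0 counts in any of the 11 libraries, such as *S100a8*. For *S100a16* the difference was -0.92 (SE 0.15, adjusted p = 0.0127 by edgeR), with the IMQ libraries above all controls in skin and below all controls in the small intestine. This call was lost without replicate 10 (adjusted p = 0.0523) or replicate 11 (adjusted p = 0.0668) of the small intestine. *S100a14* had a difference of -1.22 (SE 0.32, adjusted p = 0.0764), which was called without control replicate 7 of the small intestine (adjusted p = 0.00989) and by DESeq2 (adjusted p = 0.00794). *S100a8*, fitted without the filter, had -8.88 (SE 1.16, adjusted p = 0.00671).

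The resting levels of the members differed between the tissues. Among the control libraries, 7 members were tested and all 7 were called, beside 51.9% of the 18890 genes tested. 6 of them were higher in skin (25.7% of all genes) and 1 was lower (26.2%). The largest difference was that of *S100a14*, with a log2 difference of 7.01 (SE 0.29, adjusted p = 4.63e-06 by edgeR), followed by *S100a4* with 6.44 (SE 0.23, adjusted p = 3.80e-06). *S100a9* (3.79), *S100a16* (3.18), *S100a6* (2.77) and *S100a11* (2.57) were also higher in skin. *S100a10* was higher in the small intestine, by a log2 difference of -0.74 in the direction skin minus small intestine (SE 0.18, adjusted p = 0.00886), and this call was lost without control replicate 1 of the skin (adjusted p = 0.0505). The 3 members that were not tested were also higher in skin without the filter, namely *S100a8* (3.74, adjusted p = 0.00798), *S100a7a* (3.6, adjusted p = 0.00858) and *S100a3* (8.47, adjusted p = 0.00716).

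By TPM, which is scaled per length, *S100a11* was the most abundant member in control skin (1353 ± 98.3 TPM, SD, n = 3), above *S100a6* (727 ± 174) and *S100a10* (722 ± 101), whose ranges overlapped. *S100a14* (612 ± 34.1) and *S100a4* (565 ± 55.3) followed, also with overlapping ranges, and *S100a16* (465 ± 63.1) lay below them. Far lower were *S100a3* (1.26 to 90.6), *S100a9* (14.8 ± 1.28), *S100a8* (7.24 ± 3.89) and *S100a7a* (1.23 ± 0.31). In IMQ-treated skin, *S100a9* (9344 ± 1116 TPM, SD, n = 3) and *S100a8* (7463 ± 852) came first with overlapping ranges, followed by *S100a11* (1755 ± 87.2), and the ranges of neighbours from *S100a14* (637 ± 75.2) down to *S100a4* (395 ± 137) overlapped. In the control small intestine, *S100a10* stood first at 759 ± 130 TPM (SD, n = 3), above *S100a11* (142 ± 13), *S100a6* (67.0 ± 13.8) and *S100a16* (32.2 ± 3.15), and none of these ranges overlapped. The other 6 were at or below 5.24 TPM in every control library. After IMQ the first 4 kept this order, with *S100a10* at 535 and 543 TPM.

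Genes whose pattern was most like that of a member were sought by the root mean square difference of centred log2(normalized count + 1) values over the 11 libraries, among 16330 genes with a mean of at least 50. This is a description of likeness over both tissues. Genes can therefore be near a member through a shared difference between skin and small intestine alone. *S100a8* and *S100a9* were nearest to each other (0.64), and the next for both were *Sprr2b*, a cornified envelope gene (1.16 from *S100a8* and 1.31 from *S100a9*), and *Serpinb3a*, a protease inhibitor gene (1.26 and 1.21). *S100a3* was nearest to *Tchh*, which encodes trichohyalin of the hair follicle (0.84), and then to the pigment genes *Oca2* (1.10) and *Mc1r* (1.13). *S100a4* was nearest to *Synpo2l* (0.27), *Pcolce2* (0.30) and *Pygm* (0.31). *S100a7a* was nearest to *Tmprss7* (0.88), *Serpina9* (0.92) and *Aqp9* (0.94).

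The stretch of chromosome 3 from *S100a1* to *S100a10* (positions 90511034 to 93564645) also holds the genes of the cornified envelope. Of its 94 genes in the table, 71 were tested in skin, and 19 were called higher and 0 lower, beside 4.05% and 2.69% of all genes tested. Handling of reads shared by genes was not given, so calls of similar neighbouring genes may not be independent. *S100a8* and *S100a9* were the only called genes at the S100 end, and the other 17 were genes of the *Sprr*, *Lce3* and *Rptn* group between the separate S100 ends. In the small intestine, 19 genes of the stretch were tested and 0 were called, beside 2.95% of all genes tested.

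**Figure D3:**
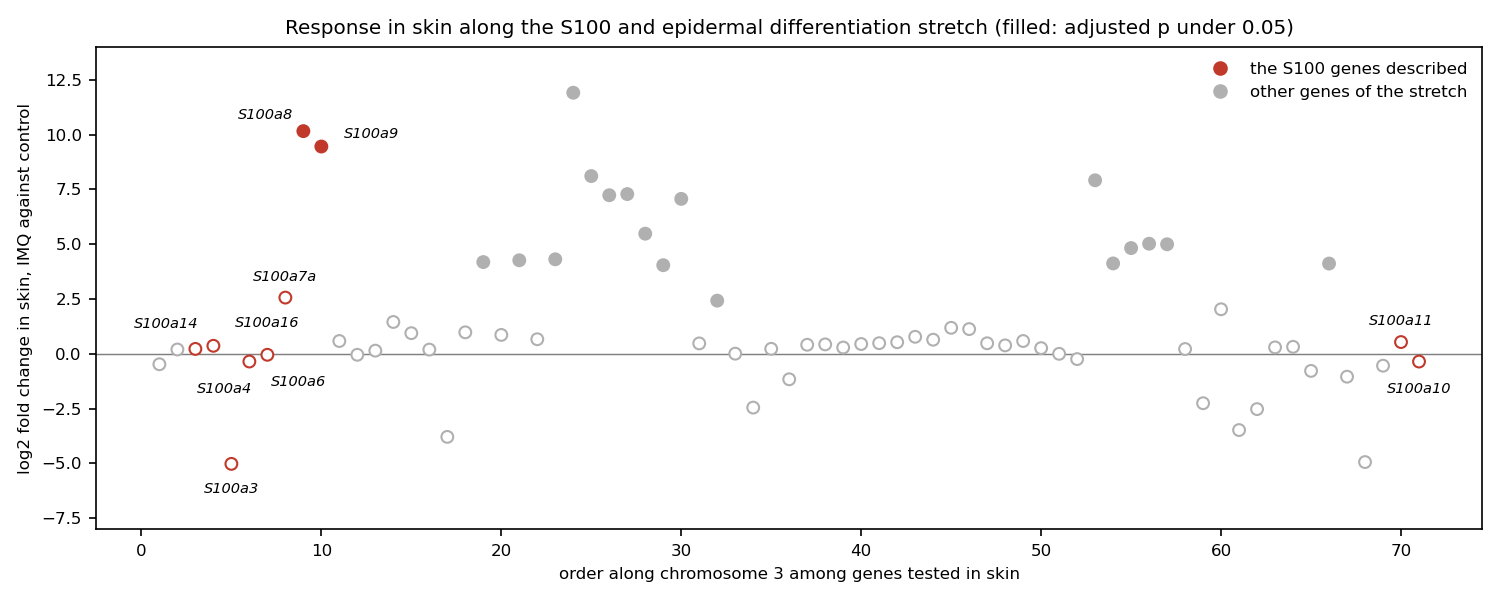
Log2 fold change in skin (IMQ against control, edgeR) of the 71 tested genes from *S100a1* to *S100a10*, in their order along chromosome 3, with the S100 genes described in red and filled points for an adjusted p under 0.05. *S100a8* and *S100a9* are filled beside *S100a7a* and *S100a6*, which are not, and all 19 filled points lie above 0.

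Genes that act with the family were followed in lists. Among 8 receptors of S100A8 and S100A9, 3 were called higher in IMQ-treated skin and 0 lower, with a median log2 fold change of 0.11. They were those of the TLR4 complex, namely *Cd14* (2.14, adjusted p = 0.00406 by edgeR), *Ly96* (1.16, adjusted p = 0.0258) and *Tlr4* (0.83, adjusted p = 0.0339). The level of *Tlr4* was 4.57 to 6.55 TPM in control skin and 8.81 to 9.20 TPM after IMQ. The calls of *Ly96* and *Tlr4* were each lost in 5 of the 11 other fits, with adjusted p-values of up to 0.110 and 0.128, and among these were the fits without control replicate 1 or IMQ replicate 5. Of these 8, 0 were called in the small intestine (median 0.52). Of 5 annexins that bind S100 proteins, 0 were called in skin (median 0.11), and in the small intestine *Anxa5* was called higher (1.02, adjusted p = 0.00398; median of the list 0.07).

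Of 10 cytokines known to induce *S100a8* and *S100a9* in keratinocytes, 7 were tested in skin and 4 were called, all higher, beside 4.05% of all genes tested. The median over the 7 was 2.41, and those called were *Il36a* (3.15, adjusted p = 0.0323 by edgeR), *Il1b* (2.84, adjusted p = 0.00432), *Osm* (2.50, adjusted p = 0.0119) and *Il6* (2.41, adjusted p = 0.0200). *Il1b* was called in each of the 11 other fits. *Il36g* (1.92, adjusted p = 0.0846), *Il36b* (1.55, adjusted p = 0.144) and *Tnf* (1.03, adjusted p = 0.153) were not called, although without control replicate 2 *Il36g* (adjusted p = 0.0348) and *Tnf* (adjusted p = 0.0221) were. *Il17a* had 0 counts in all 3 control skin libraries and 80, 71 and 243 counts after IMQ, and *Il17f* had 0 counts and 118, 111 and 554 counts, so both were below the filter. IMQ replicate 6 was the highest for both and had the lowest *S100a8* and *S100a9* of the IMQ group. Of the cytokines tested in skin, *Il1b*, *Il36a*, *Il36b* and *Il36g* were also lowest in this library among the IMQ libraries. *Il6* and *Osm* were lowest in IMQ replicate 4, and *Tnf* was highest in IMQ replicate 6. *Il22*, also below the filter, had 0 counts in all 3 control skin libraries and 14, 0 and 32 counts in IMQ replicates 4, 5 and 6. How these levels relate to those of *S100a8* and *S100a9* was not tested. Of 10 receptor chains for these cytokines, 3 were called higher in skin (*Il1rap*, 1.09; *Il10rb*, 0.71; *Il17ra*, 0.54; median of the list 0.51). In the small intestine, *Il1b* was called among 3 cytokines tested (3.16, adjusted p = 0.00519; median 1.91), at 1480 and 2954 counts after IMQ against 225 to 312, and *Il6ra* among 10 receptor chains (2.83-fold, adjusted p = 0.00368; median 0.16). In the same IMQ libraries *S100a8* had 7 and 11 counts, and *S100a9* had 36 and 57 counts against 14, 2 and 14 in the controls. How these counts relate to *Il1b* was not tested.

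Of 8 other genes of metal or antimicrobial defence, 7 were tested in skin and 3 were called, all higher (median 2.2). Without control replicate 2, 3 were called higher and 1 lower (*Slc39a10*, -2.19, adjusted p = 0.00938 by edgeR). *Lcn2*, which encodes a siderophore-binding protein, had a log2 fold change of 5.22 (SE 0.37, adjusted p = 0.00218 by edgeR), *Slpi*, a protease inhibitor, 4.48 (adjusted p = 0.00354), and *Slc11a1*, a metal transporter of phagosomes, 2.57 (adjusted p = 0.00221). *Lcn2* was at 8.64 to 11.7 TPM in control skin and at 196, 328 and 490 TPM after IMQ, and the groups did not overlap. *Slc11a1* was also called in the small intestine (3.82, adjusted p = 1.20e-04; median of the 7 tested 0.36).

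Markers of cell types known to hold S100A8 and S100A9 were also followed in skin, where 4.05% of all genes tested were called higher. Of 10 neutrophil markers, 8 were tested and 5 were called, all higher, with a median of 2.45 over the 8 (*Stfa2l1*, 3.56; *Mmp8*, 3.49; *Csf3r*, 3.04; *Cxcr2*, 2.91; and *Retnlg*, 2.0). *Mpo*, which encodes myeloperoxidase of the primary granules, went the other way, with normalized counts of 172, 288 and 49.7 in control skin and of 47.0, 20.6 and 32.9 after IMQ. All IMQ libraries were below all controls, and the gene was not called (-2.34, adjusted p = 0.0851 by edgeR). *Elane*, of the same granules (0.22, adjusted p = 0.775), and *Il1r2*, a decoy receptor for interleukin-1 (-0.0034, adjusted p = 0.997), had overlapping groups, and *Ly6g*, a defining marker, had 0 to 9 counts in every library. The 10 markers summed to 48.4 to 104 TPM in control skin, of which *Il1r2* held 37.8 to 85.7 TPM, and to 132 to 170 TPM after IMQ. Of 4 keratins of activated keratinocytes, 3 were called higher (*Krt6b*, 5.24; *Krt16*, 4.63; *Krt6a*, 3.99; median 4.31), and the sum was 1384 to 2045 TPM in control skin and 5544 to 13417 TPM after IMQ. Monocyte and macrophage markers summed to 826 to 1190 TPM and to 1460 to 1950 TPM, with 3 of 8 called higher (*Adgre1*, 2.88; *Fcgr1*, 1.65; *Lyz2*, 0.88; median 0.76). Of 6 keratinocyte markers, 1 was called, *Krt14*, higher (1.41; median 0.68), and of 6 fibroblast markers 0 were called (median -0.17). Without control replicate 2 the calls of *Lyz2* (adjusted p = 0.0521) and *Krt14* (adjusted p = 0.0513) were lost. How much of the rise of *S100a8* and *S100a9* lay in each cell type was not tested.

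Neutrophil markers of the small intestine summed to 16.8 to 19.6 TPM in the controls and to 29.0 and 33.2 TPM after IMQ. The rise of this sum lay largely in *Csf3r*, with a mean of 1.64 TPM in the controls and 15.3 TPM after IMQ. Mean levels of *Retnlg* (12.74 and 12.02 TPM), *Il1r2* (3.34 and 3.41 TPM) and *Cxcr2* (0.134 and 0.110 TPM) changed little, with overlapping groups. Of the neutrophil markers, 5 were tested and 2 were called higher (*Csf3r*, 3.21, and *Mmp8*, 1.83; median -0.01), and the call of *Mmp8* was lost in 8 of 9 other fits. Monocyte and macrophage markers summed to 343 to 434 TPM and to 487 and 514 TPM, with 3 of 8 called higher (*Cd68*, 2.54; *Adgre1*, 2.16; *Fcgr1*, 1.46; median 0.52). Keratins of activated keratinocytes summed to at most 0.687 TPM there. Of 8 epithelium markers and 6 fibroblast markers, 0 were called (medians -0.20 and -0.21), and the 1 hair follicle marker and the 1 keratinocyte marker that were tested were not called.

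**Figure D4:**
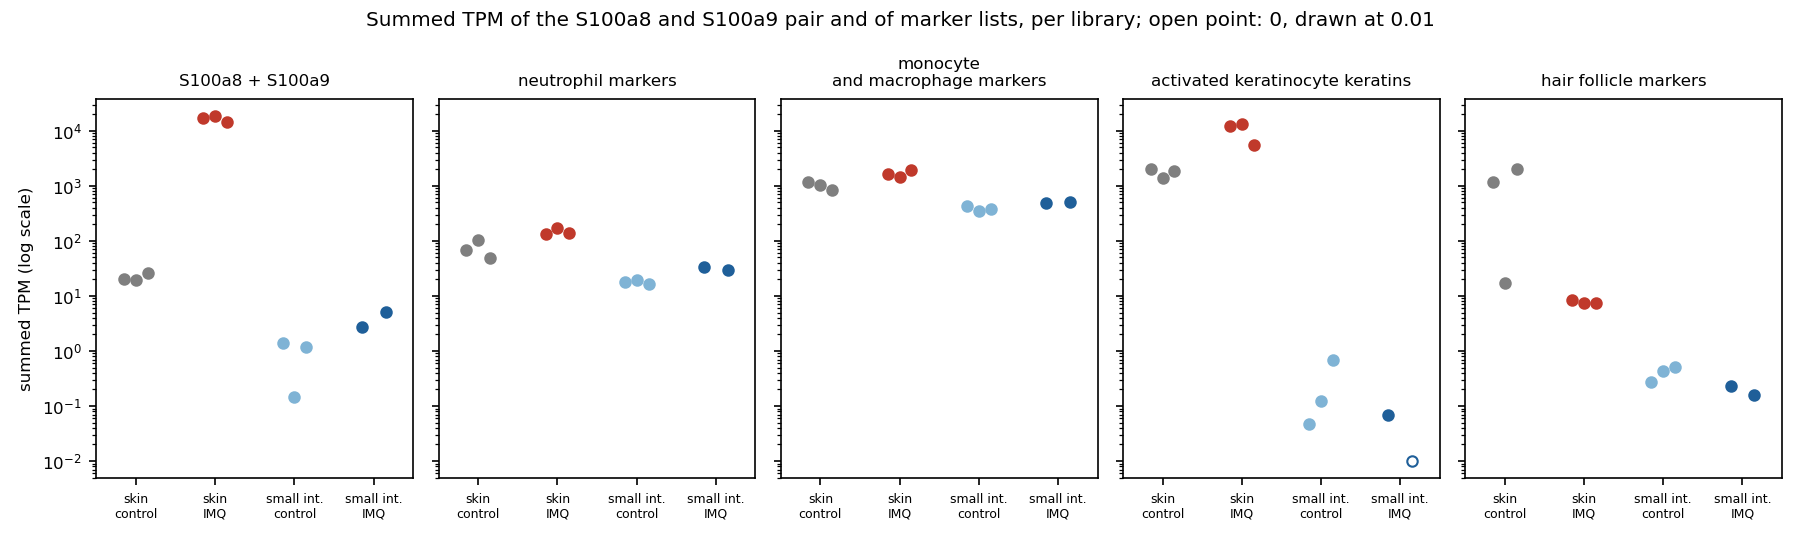
Summed TPM (log scale) of *S100a8* with *S100a9* and of 4 marker lists in each of the 11 libraries, by tissue and treatment. In IMQ-treated skin the calprotectin pair lies at 14626 to 18450 TPM, beside 132 to 170 TPM for the neutrophil markers and 5544 to 13417 TPM for the keratins of activated keratinocytes, and the hair follicle markers of control replicate 2 lie near the IMQ libraries.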

How the data were processed

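RNA of skin and small intestine had been sequenced, and the authors aligned reads to mm10 with HISAT2 2.1.0 and quantified genes with StringTie 2.1.3b, after bcl2fastq 2.20.0 and Trimmomatic (per the submitters' processing notes). The deposited table holds whole-number read counts, not normalized, which were tested here. The authors also deposited TPM, used here for levels and for the ratio of *S100a9* to *S100a8* (exact permutation test), whereas the fits across all genes used counts, and FPKM, deposited in the same table and not used. Handling of strand and of reads shared by genes was not given in the sources used here.

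Genes with 0 counts in any library of a comparison were left out, and the others were normalized by relative log expression and tested with edgeR 4.0.16 (R 4.3.3, quasi-likelihood, Benjamini-Hochberg, adjusted p under 0.05). The standard error (SE) is the size of the log2 fold change divided by the square root of F. The biological coefficient of variation was 0.245 (skin) or 0.215 (small intestine), and depth limits only genes of few counts. The study used the Wald test of DESeq2, run here as an alternative (DESeq2 1.42.0). Further alternatives were TMM, filterByExpr, no filter, one fit of all 11 libraries and each library left out. Scripts were tested on simulated data. All 10 members are named. At most 4 genes of each other list are named, by fold change among called genes and otherwise by p, and for 5 members the 3 genes most like it. *Retnlg*, *Mpo*, *Elane*, *Il1r2*, *Il36g*, *Il36b*, *Tnf* and *Slc39a10* in skin were named after values were seen. So were *Retnlg*, *Il1r2* and *Cxcr2* in small intestine, *Apoa4*, *Il17a*, *Il17f*, *Il22*, *Ly6g* and the genes overlapping members. The members and lists were chosen with earlier results of these data known. Symbols of 4 list genes were matched through RefSeq synonyms (*Il36a*, *Il36b*, *Il36g* and *S100a7l2*), and *Krt85* was not matched. Human and other samples of the study were not analysed here.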

Additional observations from a re-analysis of the deposited data

Results flagged for a closer look

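Several results were picked out because the response to IMQ differed between skin and small intestine by the interaction test of edgeR with Benjamini-Hochberg adjustment, in which a negative log2 difference means a response less positive in the small intestine. Among the S100 genes, these were *S100a9* (-7.22), *S100a8* (-8.88, fitted without the filter on zero counts) and *S100a16* (-0.92). *S100a16* was higher in all 3 IMQ libraries of skin and lower in both IMQ libraries of the small intestine. Among the antimicrobial genes, *Slpi* had a difference of -5.83 (adjusted p = 7.77e-04), since it rose in skin and had a log2 fold change of -1.37 (adjusted p = 0.0558) in the small intestine, and *Lcn2* had -4.04 (adjusted p = 0.00318). *Retnlg*, a neutrophil marker, had -2.07 (adjusted p = 0.0457). *Slc11a1* (1.25, adjusted p = 0.0280), *Anxa5* (1.17, adjusted p = 0.00767) and *Cd68* (1.97, adjusted p = 0.00667) had the more positive response in the small intestine. The calls of *Retnlg* and *Slc11a1* were lost in 11 and 8 of the 15 other fits.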

How the results depend on the processing

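No paired analysis was possible because the labels number the libraries in a run and do not name the mouse of each. Skin and small intestine libraries may come from the same mice. The tests between tissues treated all libraries as independent. The log2 fold changes of *S100a8* and *S100a9* in skin kept their sign and their call in each alternative run. Signs turned only for genes that were not called, namely *S100a6* in skin without control replicate 3 (0.142) or IMQ replicate 4 (0.0925), with a range of -0.164 to 0.142 over the libraries left out, *S100a11* in small intestine without IMQ replicate 11 (range -0.299 to 0.000496), and, in the difference between tissues, *S100a10* without skin IMQ replicate 6 or control replicate 9 of the small intestine (range -0.341 to 0.0212) and *S100a7a* without control replicate 8 (range -1.88 to 0.212). With DESeq2, 4 members were called higher and 1 lower in skin (*S100a3*), and 1 lower in small intestine. One fit of all 11 libraries called 1 member higher in skin, since *S100a8* was not tested, and 1 higher and 1 lower in small intestine. With a library left out, 2 to 3 members were called higher and 0 to 1 lower in skin, 1 to 3 were called lower in the difference between tissues, and 0 to 1 were lower in control skin than in control small intestine. Of the list genes called in skin, the call was lost for *Lyz2* in 7 other fits, for *Il17ra*, *Lef1*, *Hoxc13*, *Krt14* and *Rptn* in 6 each, for *Ly96* and *Tlr4* in 5 each, for *Il36a*, *Il1rap*, *Il10rb* and *Cxcr2* in 3 each, for *Il6* in 2, and for *Osm* and *Fcgr1* in 1 each, most often without control replicate 1, IMQ replicate 4 or IMQ replicate 5. In small intestine it was lost for *Mmp8* in 8, *Fcgr1* in 4 and *Il6ra* in 1. The cause of these changes was not tested.

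Over all genes, DESeq2 called 1514 higher and 1516 lower in skin, 1006 and 200 in small intestine, and 797 and 484 in the difference between tissues. The fit of all 11 libraries called 944 lower in skin, and the fit without a filter called 200 higher and 101 lower in the difference between tissues. Without single libraries the counts were 219 to 1139 higher and 39 to 1382 lower in skin, 282 to 687 and 5 to 114 in small intestine, and 99 to 739 and 45 to 333 in the difference between tissues. The lowest counts in skin came without IMQ replicate 5 and the most called lower without control replicate 2. The 2 libraries of the IMQ group of the small intestine and the low counts of *S100a8*, *S100a7a* and *S100a3* there limit what could be detected. When 1 IMQ library of that group was left out, the remaining one was assumed to vary like the other groups.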

Other observations

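Of 7 further S100 genes, 3 were tested in skin and 0 were called (median log2 fold change -0.48). *S100b*, of glia and pigment cells, had -1.21 (adjusted p = 0.0726 by edgeR), with all IMQ libraries below all controls. In the small intestine 4 were tested and 0 were called (median -0.02). *S100a7l2* had 0 counts in all 11 libraries, and *S100a5* had 2 counts in 1 library and 0 in the others.

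Of 7 epidermal genes whose proteins begin with an S100 domain, all were tested in skin. *Rptn*, which encodes repetin, was called higher (4.12, SE 0.90, adjusted p = 0.0439 by edgeR), and this call was lost in 6 of 10 other fits, in which the adjusted p reached 0.136. *Flg2*, filaggrin family member 2, had -2.52 (adjusted p = 0.0801), *Tchh* had -4.94 (adjusted p = 0.0846) and *Crnn*, which encodes cornulin, had -3.48 (adjusted p = 0.198), with a median of -0.78 over the 7. *Tchh* had normalized counts of 15381, 183 and 16731 in control skin and of 232 to 476 after IMQ, and *Crnn* had 840, 6.54 and 822 and then 20.1 to 106, so control replicate 2 was below all IMQ libraries for both. Without this library *Tchh* (-5.52, adjusted p = 0.00171) and *Crnn* (-4.06, adjusted p = 0.0191) were called lower and *Rptn* was not called (4.51, adjusted p = 0.0561), with a median of -1.08. In the small intestine, 1 of the 7 was tested and not called.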
